A study of Mus musculus with 8 samples.

Results

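The 16 Mb of mouse chromosome 1 between 60 and 76 Mb (GRCm38) were compared gene by gene between sorted CD4+ CD8+ thymocytes of NOD/ShiLtJ (NOD) mice and of C57BL/6J mice. The interval spans Idd5, a diabetes region of the NOD mouse. The genes described are the protein-coding genes of the GENCODE M21 annotation that start in the interval and held 20 or more reads summed over the 8 libraries. Cd28, Ctla4, Icos, Ikzf2 and Xrcc5 were left out by name, and genes whose symbols start with Zfp, Rpl or Rps by prefix. Of 123 protein-coding genes of the interval, 7 were left out in these ways, 44 of the others held under 20 reads, and 72 remained, out of 53465 genes listed per library. Of the 44, 15 held 0 reads.

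NOD is an inbred strain that develops autoimmune diabetes without treatment, and C57BL/6J is the common inbred strain set against it. The labels give strain, organ and cell type, and name no age, sex or treatment for either strain. Thymus cells were stained for viability, CD4 and CD8a, and live double-positive cells were sorted. At this stage a thymocyte completes its antigen receptor and is kept or removed by selection. Each strain had 4 libraries, which were added up by the B number of their titles into 2 samples per strain (sample 1 and sample 2). Each sample thus combines a library titled T1 and a library titled T2.

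Idd loci are stretches of the genome at which the alleles of other strains make NOD mice less prone to diabetes. Idd5 was resolved in congenic mice, which carry a stretch of another strain's chromosome on the NOD background, into several subregions. Its best known candidates are the T cell inhibitory receptor Ctla4 near the proximal end, and Slc11a1, a metal ion transporter of macrophage phagosomes, further along. The genes between them are mostly known for roles outside immunity, such as fatty acid oxidation, actin assembly, DNA repair and autophagy.

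The NOD libraries were deeper. They held 23.533 to 30.371 M reads that fell in genes, and C57BL/6J libraries held 8.527 to 15.702 M. Of 8 markers fixed for the double-positive stage, all were tested and 0 passed an adjusted p under 0.05. Their summed level was 11750 to 13940 counts per M reads after TMM scaling (CPM) in NOD libraries, against 15310 to 19550 CPM in C57BL/6J libraries, with no overlap. Rag1 was the largest part of this sum, at 6574 and 5230 CPM in NOD samples, against 9561 and 8435 CPM in C57BL/6J samples. The sum therefore does not speak for the list as a whole. Cd8b1, Rag1, Rag2 and Dntt had every NOD library below every C57BL/6J library, and Ptcra every one above. Cd4, Cd8a and Cd3e overlapped, with Cd4 at 1246 and 1340 CPM in NOD samples, against 1364 and 1139 CPM in C57BL/6J samples. Whether the 2 samples of a strain came from separate mice is not given in the labels, so the p-values rest on a spread that may be technical. In RNA from bulk cells, fewer cells of a type and less RNA per cell cannot be told apart.

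Of the tested genes of the interval, 2 differed between the strains. Map2 and Cxcr2 were higher in NOD, by 5.09 ± 0.78 and 4.61 ± 0.86 on the log2 scale (estimate ± SE, n = 2 summed samples per strain). None of the other tested genes passed edgeR's quasi-likelihood test at an adjusted p under 0.05. Of the 72 genes, 65 passed the filter on low counts and were tested, so 3.08% of those tested were called, against 3.68% of all 17291 genes tested. In NOD 2 were higher and 0 were lower, where 1.91% of all tested genes were called higher and 1.78% lower. At an unadjusted p under 0.05 there were 7 of the 65 tested genes of the interval, a smaller share than the 13.1% of all tested genes. They were Map2, Cxcr2, Obsl1, Adam23, Pard3b and Rufy4, with higher estimates in NOD, and Acadl, with a lower one.

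The directions were mixed along the chromosome. Of the 65 estimates 34 were positive and 31 negative, with a median log2 fold change of 0.0058, against 0.0163 over all 11791 tested protein-coding genes. The 4 NOD libraries lay wholly above the 4 C57BL/6J libraries for 6 tested genes and wholly below them for 2, which is 12.3% of those tested, against 17.0% of all tested genes. The 6 were Pard3b, Map2, Cxcr2, Glb1l, Dnajb2 and Obsl1, and the 2 were Acadl and Atg9a. By mean level, 3 of the 6 were at 1 to 10 CPM and 3 under 1 CPM, and the 2 were at 10 CPM or more. Low genes leaned to NOD beyond the interval too. Of all tested protein-coding genes, 376 lay wholly above and 234 wholly below at 1 to 10 CPM. Under 1 CPM these were 169 and 73, and at 10 CPM or more 548 and 646. Neighbouring tested genes had estimates of the same sign in 37 of 64 adjacent pairs.

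**Figure D1:**
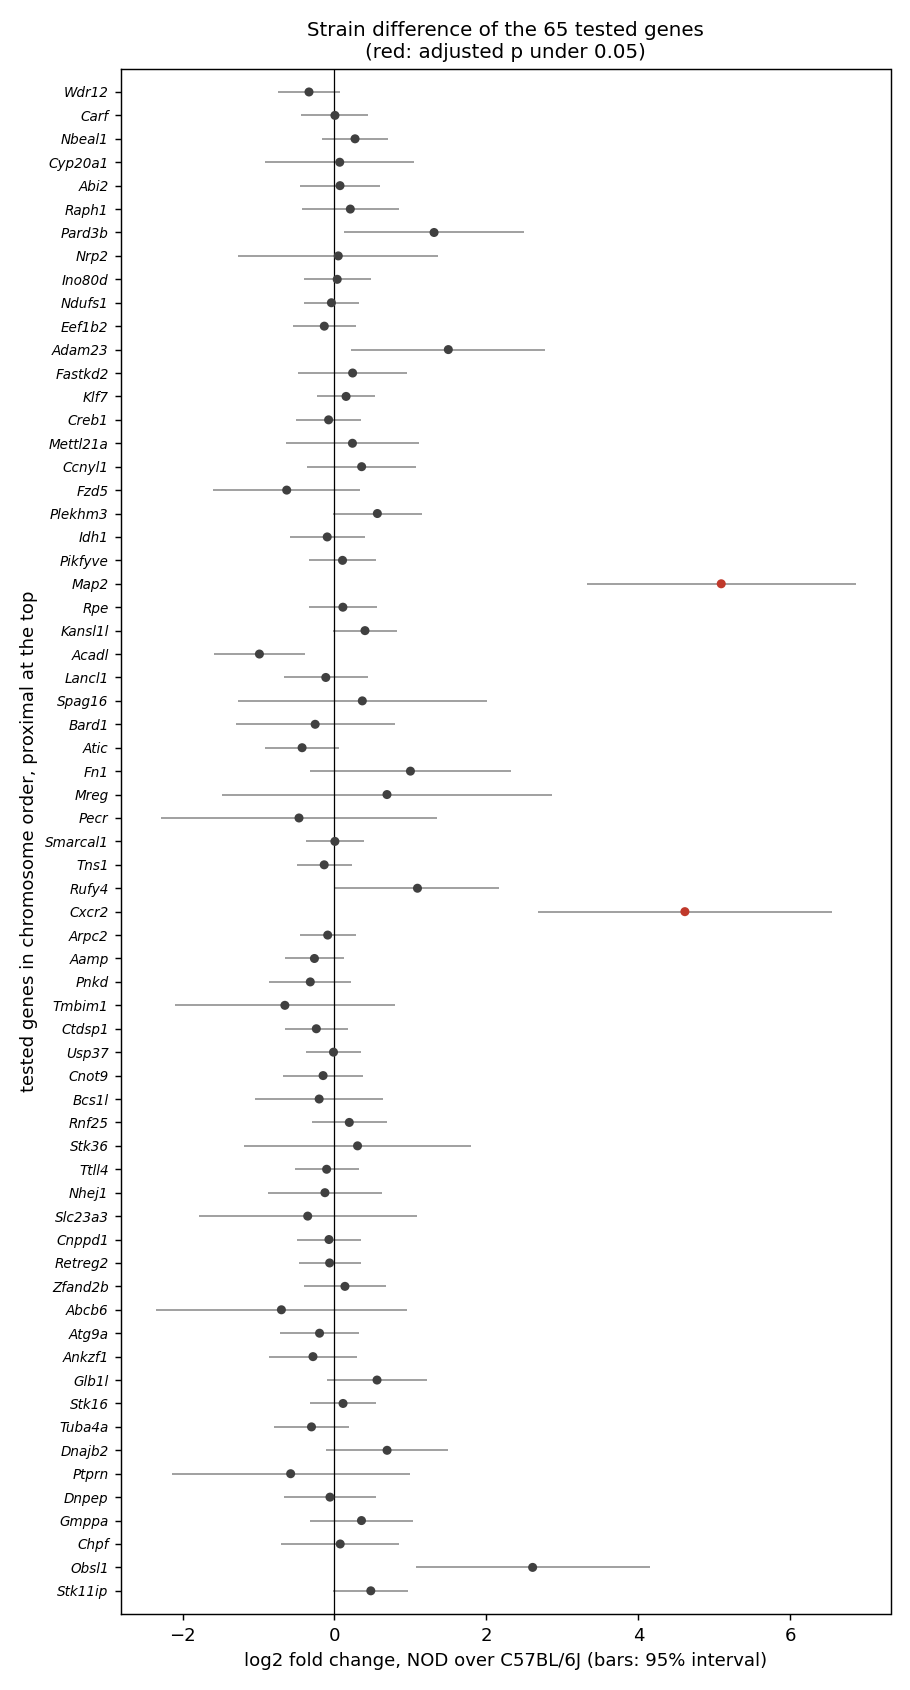
Log2 fold change (NOD over C57BL/6J, x axis) of the 65 tested genes in chromosome order, with the proximal end at the top. Points are estimates, bars are 95% intervals, and the red points, Map2 and Cxcr2, are the 2 genes with an adjusted p under 0.05.

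In the proximal window of 60 to 64 Mb, which runs from Wdr12 to Fastkd2, 14 genes were members and 13 were tested, with 0 called and a median log2 fold change of 0.07. The window of 64 to 68 Mb, from Klf7 to Lancl1, held 13 genes, all tested, with Map2 called and a median of 0.11. The window of 68 to 72 Mb held only Spag16, Bard1, Atic and Fn1, none of them called, with a median of 0.06. The distal window of 72 to 76 Mb was the densest, with 41 genes from Mreg to Stk11ip, of which 35 were tested and Cxcr2 was called, and its median was -0.07. Over the other 618 tested protein-coding genes of chromosome 1, 17 were higher and 16 lower in NOD, and the median was 0.02.

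Map2 (ENSMUSG00000015222, chr1:66175273-66442583, plus strand) encodes a microtubule-associated protein best known from the dendrites of neurons. Its level was 2.75 and 3.19 CPM in NOD samples, against 0 and 0.162 CPM in C57BL/6J samples. By library it had 72, 59, 98 and 83 reads in NOD, against 0, 0, 4 and 0 reads in C57BL/6J. Every NOD library was above every C57BL/6J library, and all 4 C57BL/6J reads came from 1 library. The ratio of the depth-scaled counts was 35.4, with an exact 95% interval of 13.7 to 131 that covers counting error only. The log2 fold change of 5.09 had an adjusted p of 0.00738, and Map2 stayed past the threshold under all 21 alternative settings, with adjusted p between 8.54e-11 and 0.0349 and log2 fold changes between 4.17 and 9.98. The size rests on the 4 reads of library T1 of C57BL/6J sample 2. The estimate was 9.66 without that library, 9.98 when all of C57BL/6J sample 2 was left out, and 8.61 on the T2 libraries alone. All C57BL/6J reads are then at 0, so these sizes depend on the prior count and are no bounds. Map2 passed the low-count filter through its NOD samples alone, and its level per length was low in both strains, at 0.181 CPM per kb of exon in NOD and 0.00493 CPM per kb in C57BL/6J.

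Cxcr2 (ENSMUSG00000026180, chr1:74153989-74161246, plus strand) encodes a chemokine receptor that draws neutrophils to sites of inflammation. It stood at 1.99 and 1.25 CPM in NOD samples, against 0 and 0.122 CPM in C57BL/6J samples. The reads were 54, 41, 41 and 30 in NOD libraries, against 0, 0, 3 and 0 in C57BL/6J libraries. The strains did not overlap, and the 3 C57BL/6J reads came from the same library that held the Map2 reads. The count ratio was 25.1, with an exact 95% interval of 8.43 to 123, and the log2 fold change of 4.61 had an adjusted p of 0.0189. Cxcr2 was past the threshold under 17 of 21 alternative settings. It was not past it without C57BL/6J sample 1 (log2 fold change 3.70, adjusted p = 0.117), on the T1 libraries alone (4.01, adjusted p = 0.0541), without library T2 of C57BL/6J sample 1 (4.34, adjusted p = 0.0623) or without library T1 of NOD sample 2 (4.56, adjusted p = 0.0569). Its size rests on the same library as that of Map2, with 8.78 without that library, 9.10 without C57BL/6J sample 2 and 7.64 on the T2 libraries alone, where C57BL/6J is at 0 and the size depends on the prior count. Cxcr2 also passed the low-count filter through its NOD samples alone. The intervals and adjusted p-values of Map2 and Cxcr2 do not allow for that.

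Some markers of other cells were also higher in NOD, and others were not. Summed over 10 myeloid markers, libraries ranged from 21.2 to 30.9 CPM in NOD, against 12.9 to 15.4 CPM in C57BL/6J. The largest parts were Lyz2, at 7.13 and 11.98 CPM in NOD samples, against 4.46 and 3.24 CPM in C57BL/6J samples, and Mpeg1, at 8.43 and 8.10 CPM, against 3.53 and 3.24 CPM. Neither was called. Itgam (log2 fold change -0.43) and Fcer1g (-0.56) had lower estimates in NOD, also uncalled. Of the 8 myeloid markers that could be tested, 1 was higher in NOD and 0 were lower. That 1 was Csf1r, the macrophage colony-stimulating factor receptor, at 3.82 and 3.30 CPM in NOD samples, against 0.839 and 0.446 CPM in C57BL/6J samples (log2 fold change 2.47, adjusted p = 0.0233). The neutrophil calgranulin S100a8 stood at 0 and 0.0529 CPM in NOD samples, against 0.221 and 0.527 CPM in C57BL/6J samples. Its partner S100a9 was at 0 in both NOD samples, against 0 and 0.811 CPM in C57BL/6J samples. Neither calgranulin passed the low-count filter, and library T1 of C57BL/6J sample 2, which held all C57BL/6J reads of Cxcr2, had 0.818 CPM of S100a8 and 1.26 CPM of S100a9, the highest of the 8 libraries. The summed level of 6 fibroblast and endothelial markers was 123 to 140 CPM in NOD libraries and 135 to 165 CPM in C57BL/6J libraries. Nearly all of it was Pecam1, at 130 and 134 CPM in NOD samples, against 154 and 141 CPM in C57BL/6J samples. Of the 3 that were tested, Col1a2, a collagen chain, was higher in NOD (log2 fold change 5.70, adjusted p = 0.00959). It stood at 1.09 and 1.45 CPM in NOD samples, against 0.0442 and 0 CPM in C57BL/6J samples, and passed the low-count filter through NOD alone. The other tested markers of this list, Pdgfrb (-0.91) and Pecam1 (-0.16), had lower estimates in NOD and were not called. Lists of B cell, erythroid and thymic epithelial markers had 0 called genes. The part of other cells in the Map2 and Cxcr2 differences was not tested.

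Acadl (ENSMUSG00000026003, chr1:66830839-66863277, minus strand) encodes the long-chain acyl-CoA dehydrogenase of mitochondrial fatty acid oxidation, and its nearer end lies 388 kb beyond the end of Map2. Its level was 16.7 and 27.5 CPM in NOD samples, against 48.8 and 38.9 CPM in C57BL/6J samples. The NOD libraries held 16.7, 16.4, 25.6 and 29.7 CPM, against 57.2, 39.7, 39.6 and 37.8 CPM in C57BL/6J libraries. Every NOD library was below every C57BL/6J library. The log2 fold change of -0.99 ± 0.26 (SE) had an adjusted p of 0.0910, so Acadl was not called. It passed the threshold under 6 of 21 alternative settings, among them no low-count filter (adjusted p = 0.000862) and the DESeq2 Wald test (adjusted p = 0.0331). The 6 include the fit without NOD sample 2 (log2 fold change -1.40), which leaves NOD without a spread between samples. Over all 21, its adjusted p ran up to 0.58.

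The promoter windows of Map2, Cxcr2 and Acadl are shown. The first 2 genes were called, and Acadl had the estimate largest in size among the genes at 10 CPM or more. Each window runs from 250 bases before to 50 bases after the start given by RefSeq, on the gene's own strand. The letters are from the reference assembly GRCm38.p6 and not from NOD DNA. Capitals mark GC boxes, the letters GGGCGG or, on the other strand, CCGCCC.
Map2, chr1:66175079-66175378, plus strand: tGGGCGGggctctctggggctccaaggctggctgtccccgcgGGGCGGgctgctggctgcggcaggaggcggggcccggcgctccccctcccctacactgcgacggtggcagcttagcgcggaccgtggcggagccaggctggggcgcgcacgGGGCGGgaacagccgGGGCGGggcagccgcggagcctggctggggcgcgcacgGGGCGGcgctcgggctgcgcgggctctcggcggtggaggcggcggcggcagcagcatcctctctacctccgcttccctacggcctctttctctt
Cxcr2, chr1:74153744-74154043, plus strand: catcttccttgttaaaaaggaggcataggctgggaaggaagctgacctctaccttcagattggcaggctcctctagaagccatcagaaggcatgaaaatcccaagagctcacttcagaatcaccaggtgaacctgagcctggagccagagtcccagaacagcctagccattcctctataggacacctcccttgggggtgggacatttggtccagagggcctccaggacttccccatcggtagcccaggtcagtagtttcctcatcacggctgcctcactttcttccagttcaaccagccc
Acadl, chr1:66863260-66863559, minus strand: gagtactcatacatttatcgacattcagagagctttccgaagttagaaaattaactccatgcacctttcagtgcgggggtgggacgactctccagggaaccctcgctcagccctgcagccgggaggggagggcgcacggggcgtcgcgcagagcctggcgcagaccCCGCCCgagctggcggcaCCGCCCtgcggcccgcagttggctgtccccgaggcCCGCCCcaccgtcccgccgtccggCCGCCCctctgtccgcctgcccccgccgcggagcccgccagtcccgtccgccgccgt
The Map2 window held 5 GC boxes in 77.7% G+C, and the Acadl window 4 in 70.3% G+C. The Cxcr2 window held 0 GC boxes in 54% G+C, and 1 match to the CCAAT box (CCAAT or ATTGG).

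Windows were found for 68 of the 72 genes, 82 windows in all because some genes have several starts. Their median G+C content was 62%, against 60.7% in the windows of all tested protein-coding genes. A GC box was present in 54 of the 82 windows, or 65.9%, against 62.2% of the 11841 windows of tested protein-coding genes and 35.7% of all 32851 windows. The CCAAT box was present in 30.5% of the 82 windows, against 38% of those of tested protein-coding genes and 37.4% of all. TATAAA, or TTTATA on the other strand, was present in 7.32%, against 6.71% and 13.6%. The palindrome TGACGTCA, the site bound by Creb1, a member of the interval, was present in only 5 windows, or 6.1%, against 3.11% and 1.79%. The genes with it were Chpf, Tmem198, Zdbf2 and Zfand2b, of which Chpf and Zfand2b were tested and not called, while Tmem198 and Zdbf2 were too low to test. Chpf, on the minus strand, ends at 75479307, and Tmem198, on the plus strand, starts at 75479532. Their windows may therefore share bases, and the same site may count for both. The share thus rests on few windows that may not be separate. The 4 motifs were searched separately on both strands, so matches may overlap, and a match describes letters, not binding.

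The genes were next read by role. The cytoskeleton list, with 13 members of which 11 were tested, had 1 gene higher in NOD, Map2, and 0 lower, with a median log2 fold change of 0.21. Obsl1 (ENSMUSG00000026211, chr1:75479310-75506452, minus strand), which encodes an obscurin-like scaffold protein of the cytoskeleton, stood at 0.776 and 0.811 CPM in NOD samples, against 0.177 and 0.0811 CPM in C57BL/6J samples. Its reads were 20, 17, 20 and 26 in NOD libraries, against 3, 1, 2 and 0 in C57BL/6J libraries, and scaled by depth the strains did not overlap. The count ratio was 6.27 (exact 95% interval 2.76 to 17.6), and the log2 fold change of 2.61 ± 0.68 had an adjusted p of 0.0825. Like Map2 and Cxcr2, Obsl1 passed the low-count filter through its NOD samples alone, which its interval and adjusted p do not allow for. Obsl1 passed the threshold under 2 of 21 alternatives, no low-count filter (adjusted p = 0.0319) and without library T1 of C57BL/6J sample 1 (adjusted p = 0.0484), and its adjusted p otherwise ran up to 0.365. Pard3b, a relative of the cell polarity protein Par3, stood at 1.09 and 1.11 CPM in NOD samples, against 0.353 and 0.527 CPM in C57BL/6J samples (log2 fold change 1.31 ± 0.52, adjusted p = 0.310).

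The well expressed actin regulators had estimates near 0. Arpc2, a subunit of the Arp2/3 complex that nucleates branched actin, stood at 276 and 281 CPM in NOD samples, against 316 and 277 CPM in C57BL/6J samples. Its log2 fold change was -0.09 ± 0.16, with a 95% interval of -0.46 to 0.28, and the strains overlapped. Abi2, a subunit of the WAVE complex that activates Arp2/3, had 20.1 and 23.4 CPM in NOD samples, against 17.6 and 23.7 CPM in C57BL/6J samples (log2 fold change 0.07 ± 0.23). Raph1, the lamellipodin of the cell's leading edge, had 21.7 and 13.5 CPM in NOD samples, against 13.7 and 16.8 CPM in C57BL/6J samples (0.21 ± 0.28). For Abi2 and Raph1 too the samples of the strains overlapped.

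In metabolism and mitochondria, 13 members were tested, none was called, the estimates ran from -0.99 to 0.56, and the median was -0.04. Atic, the bifunctional enzyme of the last steps of purine synthesis, stood at 32.1 and 47.3 CPM in NOD samples, against 55.9 and 50.9 CPM in C57BL/6J samples. Both NOD samples were lower, the libraries overlapped, and the log2 fold change was -0.43 ± 0.22 (adjusted p = 0.483). Idh1, the cytosolic isocitrate dehydrogenase, had 20.3 and 22.9 CPM in NOD samples, against 25.6 and 20.6 CPM in C57BL/6J samples (-0.10 ± 0.22). Ndufs1, a subunit of respiratory complex I, had 71.7 and 78.4 CPM in NOD samples, against 78.4 and 76.03 CPM in C57BL/6J samples (-0.04 ± 0.16). The intervals of Idh1 (-0.59 to 0.40) and Ndufs1 (-0.40 to 0.32) lay within a 2-fold difference in either direction. Glb1l, a relative of lysosomal beta-galactosidase, had 9.45 and 9.10 CPM in NOD samples, against 6.14 and 6.44 CPM in C57BL/6J samples (0.56 ± 0.29, adjusted p = 0.493), with every NOD library above every C57BL/6J library. Abcb6, a transporter of the ATP-binding cassette family, was low and uneven, with 0.147 and 0.723 CPM in NOD samples, against 0.707 and 0.730 CPM in C57BL/6J samples (-0.70 ± 0.73).

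**Figure D2:**
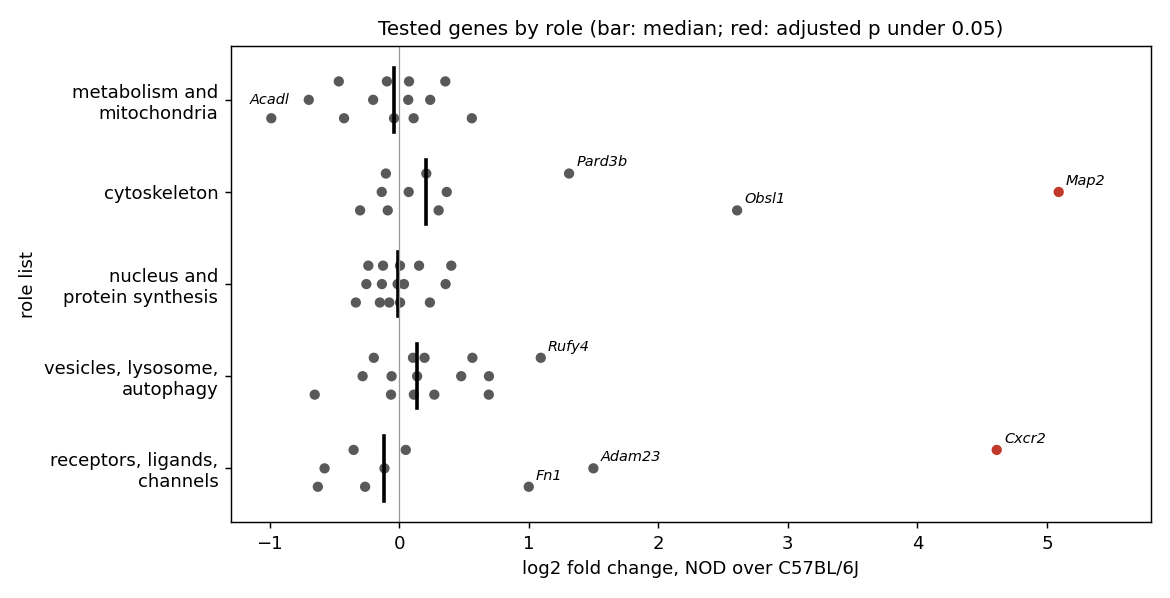
Log2 fold change (NOD over C57BL/6J, x axis) of each tested gene by role list (y axis), with the median of each list as a bar and genes with an adjusted p under 0.05 in red. The medians lie between -0.11 and 0.21, and the 2 called genes stand at 5.09 (Map2) and 4.61 (Cxcr2).

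The list of nuclear genes and genes of protein synthesis was the largest, with 15 tested of 16 members. None was called, the estimates ranged from -0.34 to 0.40, and the median was -0.01. Creb1, the transcription factor that binds cyclic AMP response elements, had the highest CPM of the interval, at 321 and 285 CPM in NOD samples, against 272 and 367 CPM in C57BL/6J samples (-0.08 ± 0.19). Klf7, a zinc finger factor, had 144 and 129 CPM in NOD samples, against 112 and 134 CPM in C57BL/6J samples (0.15 ± 0.17). The samples of the strains overlapped for both genes. Kansl1l, a relative of the KANSL1 subunit of a histone acetyltransferase complex, had 187 and 171 CPM in NOD samples, against 117 and 154 CPM in C57BL/6J samples (0.40 ± 0.18, adjusted p = 0.406). Wdr12, a ribosome assembly factor, had 131 and 114 CPM in NOD samples, against 136 and 173 CPM in C57BL/6J samples (-0.34 ± 0.18, adjusted p = 0.522). The samples of the strains did not overlap for Kansl1l or Wdr12, but their libraries did.

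Genes of DNA repair, replication and protein turnover followed. Smarcal1, a helicase of stalled replication forks, had 53.4 and 57.3 CPM in NOD samples, against 57.7 and 52.5 CPM in C57BL/6J samples (0.01 ± 0.17). Usp37, a deubiquitinase, had 104 and 107 CPM in NOD samples, against 101 and 113 CPM in C57BL/6J samples (-0.01 ± 0.16). Nhej1, a factor of the end joining that also closes rearranged receptor genes, had 4.32 and 4.99 CPM in NOD samples, against 5.30 and 4.86 CPM in C57BL/6J samples (-0.13 ± 0.33). The samples of the strains overlapped for all 3 genes. Eef1b2, a subunit of the translation elongation factor that reloads GTP, had 236 and 219 CPM in NOD samples, against 284 and 215 CPM in C57BL/6J samples (-0.13 ± 0.18).

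Bard1, the partner of Brca1 in DNA repair, varied most between samples of a strain among the genes at 10 CPM or more. It stood at 21.8 and 53.3 CPM in NOD samples, against 45.9 and 43.7 CPM in C57BL/6J samples, so NOD sample 1 was below and NOD sample 2 above both C57BL/6J samples. Its log2 fold change was -0.25 ± 0.42 (adjusted p = 0.893), -1.05 without NOD sample 2, and 0.25 without NOD sample 1. Atic, described above, had a log2 fold change of -0.74 without NOD sample 2. Such fits leave NOD without a spread between samples. The proliferation genes Mki67 and Top2a, chosen after their values were seen, differed in the same direction as Bard1 between the NOD samples only. Mki67 stood at 326 and 2070 CPM in NOD samples, against 1590 and 2127 CPM in C57BL/6J samples, and Top2a at 215 and 1154 CPM in NOD samples, against 1033 and 1095 CPM in C57BL/6J samples. NOD sample 1 was thus the lowest of the 4 samples for both, as for Bard1, Atic and Acadl. Between the C57BL/6J samples, Mki67 and Top2a were higher in sample 2, and Bard1, Atic and Acadl were higher in sample 1. The part of cycling cells in these values was not tested. Among the 38 genes at 10 CPM or more, the ratio between the 2 samples of a strain had a median of 1.13 in NOD and 1.18 in C57BL/6J. It was over 1.5 for 4 genes in NOD (Raph1, Acadl, Bard1 and Cnot9) and for 1 in C57BL/6J (Dnpep).

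**Figure D3:**
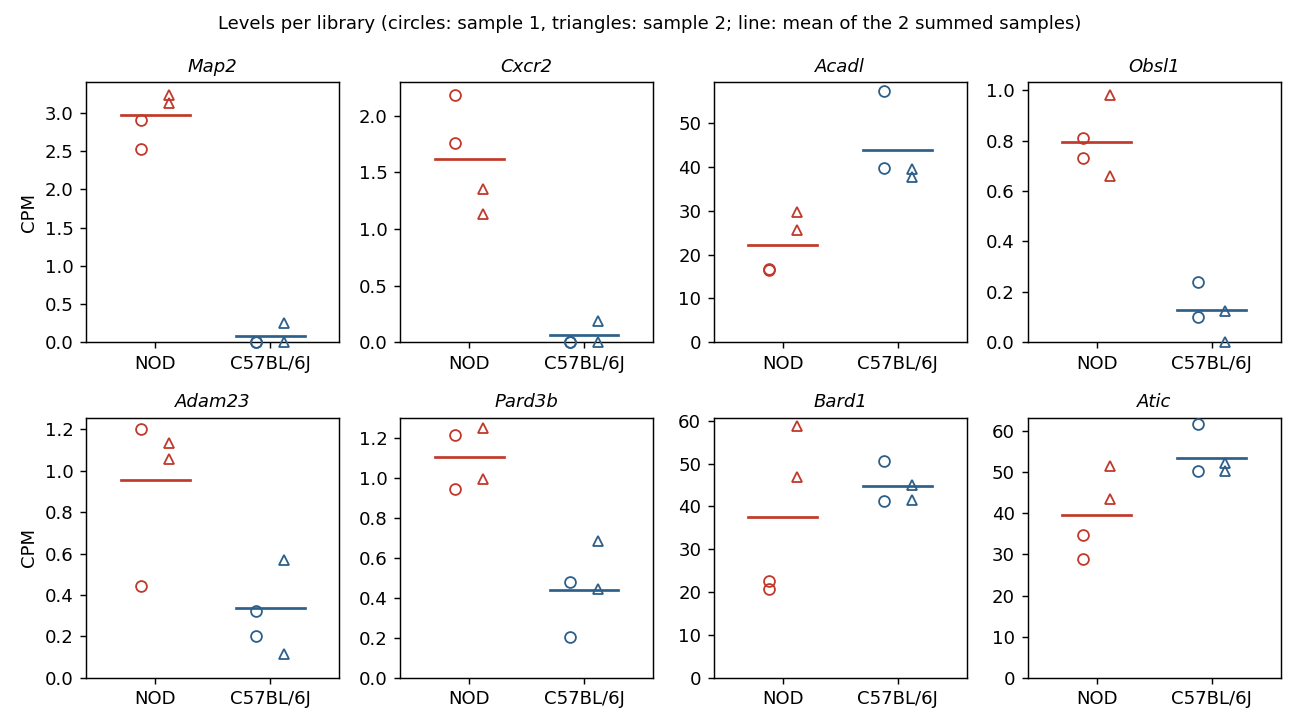
Level (CPM, y axis, starting at 0) of 8 genes in the 4 libraries of each strain, NOD on the left and C57BL/6J on the right. Circles are libraries of sample 1, triangles libraries of sample 2, and lines the mean of the 2 summed samples; the strains do not overlap for Map2, Cxcr2, Acadl, Obsl1 and Pard3b, and the NOD samples split for Bard1.

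In vesicle traffic, the lysosome, autophagy and protein quality, all 15 members were tested, none was called, and the estimates ran from -0.65 to 1.09, with a median of 0.14. Pikfyve, the kinase that makes phosphatidylinositol bisphosphate on endosomes, had 111 and 103 CPM in NOD samples, against 82.6 and 116 CPM in C57BL/6J samples (0.11 ± 0.19). Atg9a, the membrane protein that supplies lipid to growing autophagosomes, had 13.9 and 15.96 CPM in NOD samples, against 17.1 and 17.2 CPM in C57BL/6J samples (-0.20 ± 0.23, adjusted p = 0.838). Its NOD libraries, at 12.7 to 16.9 CPM, all lay below the C57BL/6J libraries, at 17.0 to 17.6 CPM, by a small margin. Stk11ip, which binds the kinase Lkb1, is the most distal member and had 30.7 and 38.1 CPM in NOD samples, against 27.8 and 21.6 CPM in C57BL/6J samples (0.48 ± 0.22, adjusted p = 0.402). Plekhm3 had 15.2 and 22.1 CPM in NOD samples, against 12.8 and 12.48 CPM in C57BL/6J samples (0.56 ± 0.26, adjusted p = 0.416). The samples of the strains did not overlap for Stk11ip or Plekhm3, but their libraries did.

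Among the lower genes of this list, Rufy4, which acts in autophagy of dendritic cells, had 1.85 and 1.48 CPM in NOD samples, against 0.618 and 0.932 CPM in C57BL/6J samples (1.09 ± 0.48, adjusted p = 0.373). Dnajb2, a co-chaperone of Hsp70, had 4.47 and 4.67 CPM in NOD samples, against 2.69 and 2.96 CPM in C57BL/6J samples (0.69 ± 0.36, adjusted p = 0.494), with no overlap between libraries. Tmbim1, a membrane protein of lysosomes and the Golgi, had 0.440 and 0.512 CPM in NOD samples, against 1.15 and 0.365 CPM in C57BL/6J samples (-0.65 ± 0.64). Its C57BL/6J samples lay on both sides of NOD.

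Receptors, ligands, channels and secreted proteins had 13 members, of which 9 were tested, with Cxcr2 higher, 0 lower, a median of -0.11 and estimates down to -0.63. Adam23, a cell adhesion protein of the ADAM family without protease activity, had 0.818 and 1.09 CPM in NOD samples, against 0.265 and 0.405 CPM in C57BL/6J samples (1.498 ± 0.57, adjusted p = 0.270), and its libraries overlapped. Fn1, which encodes fibronectin, had 0.818 and 0.547 CPM in NOD samples, against 0.353 and 0.324 CPM in C57BL/6J samples (1.00 ± 0.59, adjusted p = 0.576). Of the fibroblast and endothelial markers given above, Col1a2 was higher in NOD, while Pdgfrb and Pecam1 had lower estimates. The part of such cells in the Fn1 values was not tested. Aamp, a protein linked to cell migration, was the best expressed gene of the list per length, at 20.8 CPM per kb of exon in NOD and 24.9 CPM per kb in C57BL/6J. In CPM it had 72.8 and 70.7 in NOD samples, against 95.4 and 77.0 in C57BL/6J samples (-0.26 ± 0.17, adjusted p = 0.637). Ptprn, chosen after its values were seen because its product IA-2 is an islet autoantigen of type 1 diabetes, had 0.503 and 0.706 CPM in NOD samples, against 1.502 and 0.324 CPM in C57BL/6J samples (-0.58 ± 0.69). Its C57BL/6J samples lay on both sides of NOD.

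The other 33 tested genes had estimates from -0.63 (Fzd5) to 0.69 (Mreg), with a smallest adjusted p of 0.655, and the libraries of the strains overlapped for every one of them. The examples given here were chosen after their values were seen. Ino80d, a subunit of the INO80 chromatin remodeller, had 235 and 239 CPM in NOD samples, against 190 and 272 CPM in C57BL/6J samples (0.04 ± 0.20). Its C57BL/6J samples lay on both sides of NOD. Tns1, a tensin that ties actin to integrin adhesions, had 77.5 and 72.8 CPM in NOD samples, against 79.3 and 85.8 CPM in C57BL/6J samples (-0.14 ± 0.16). Tuba4a, an alpha tubulin, had 16.5 and 16.6 CPM in NOD samples, against 21.2 and 19.6 CPM in C57BL/6J samples (-0.30 ± 0.22, adjusted p = 0.686). Both NOD samples were lower for Tns1 and Tuba4a, within the error of the fit. Fzd5, a receptor for Wnt ligands, had 2.10 and 4.45 CPM in NOD samples, against 5.04 and 5.11 CPM in C57BL/6J samples (-0.63 ± 0.43, adjusted p = 0.655). Nrp2, a coreceptor for semaphorins and vascular growth factors, had 0.566 and 0.494 CPM in NOD samples, against 0.663 and 0.365 CPM in C57BL/6J samples (0.05 ± 0.58). Pnkd and Cnppd1, which no role list held, had log2 fold changes of -0.32 ± 0.24 and -0.07 ± 0.18.

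The 7 genes that the low-count filter removed held 20 to 41 reads each. They were Zdbf2, Igfbp5, Vil1, Ihh, Speg, Tmem198 and Inha. Inha, the alpha subunit of the hormone inhibin, had 7, 12, 4 and 4 reads in NOD libraries, against 0 in all 4 C57BL/6J libraries. The fold against a floor of 3 reads over the C57BL/6J libraries was 4.08, and the exact 95% lower limit of the depth-scaled count ratio was 3.10, without a test over samples. Inha met the rule of 20 reads through NOD alone, and the lower limit does not allow for that choice. Inha lies on the plus strand and Obsl1 on the minus strand, and the annotated starts of their transcripts face away from each other, 0.625 kb apart. Obsl1, the low gene described above, also had more reads in NOD. In mean CPM the NOD value was the higher for Igfbp5 (0.368 in NOD, 0.0847 in C57BL/6J), Zdbf2 (0.229 and 0.0829), Speg (0.177 and 0.0442) and Tmem198 (0.180 and 0.149). It was the lower for Vil1 (0.135 in NOD, 0.227 in C57BL/6J) and Ihh (0.135 and 0.151). All 6 overlapped between libraries of the strains. Just inside the limit of 20 reads stood Vil1 with 25, Ihh with 21 and Speg with 20, and just outside it Slc11a1 and Cyp27a1 with 19 each and Abca12 with 18. Slc11a1, the Idd5 candidate, had 7 reads in NOD and 12 in C57BL/6J, a depth-scaled ratio of 0.264 with an exact 95% interval of 0.0882 to 0.728. Of its 12 C57BL/6J reads, 7 came from library T1 of C57BL/6J sample 2. That library also held all C57BL/6J reads of Map2 and Cxcr2, and the highest S100a8 and S100a9 levels of the 8 libraries. It was the deepest C57BL/6J library, with 15.702 M reads in genes. Its levels of Lyz2 (2.90 CPM), Csf1r (0.567 CPM) and Mpeg1 (3.40 CPM) lay within the range of the other C57BL/6J libraries. The part of other cells in the Slc11a1 reads was not tested. The interval covers counting error only, and no test over samples was made of Slc11a1.

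Levels set how firmly each gene could be compared. The mean over the 4 samples ran from 0.111 CPM (Speg) to 311 CPM (Creb1), with a median of 14.5 CPM. Of the 38 genes at 10 CPM or more, 0 were called, against 2.65% of the 7893 protein-coding genes at that level. For 35 of the 38, the 95% interval of the log2 fold change lay within -1 and 1, so a difference above 2-fold was outside it, and for 36 the estimate was under 0.5 in size. The median SE was 0.20 among these genes, 0.36 among the 13 genes at 1 to 10 CPM, and 0.67 among the 14 tested genes under 1 CPM. In those lower classes the interval lay within -1 and 1 for 3 genes and for 0 genes. Map2 and Cxcr2 came from the lower classes, each with 1 called gene, where 5.4% of protein-coding genes at 1 to 10 CPM and 3.66% under 1 CPM were called. Per kb of exon, the highest levels of the interval were those of Arpc2, at 137 CPM per kb in NOD and 146 CPM per kb in C57BL/6J. Eef1b2 came next, at 89.8 CPM per kb in NOD and 98.6 CPM per kb in C57BL/6J.

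**Figure D4:**
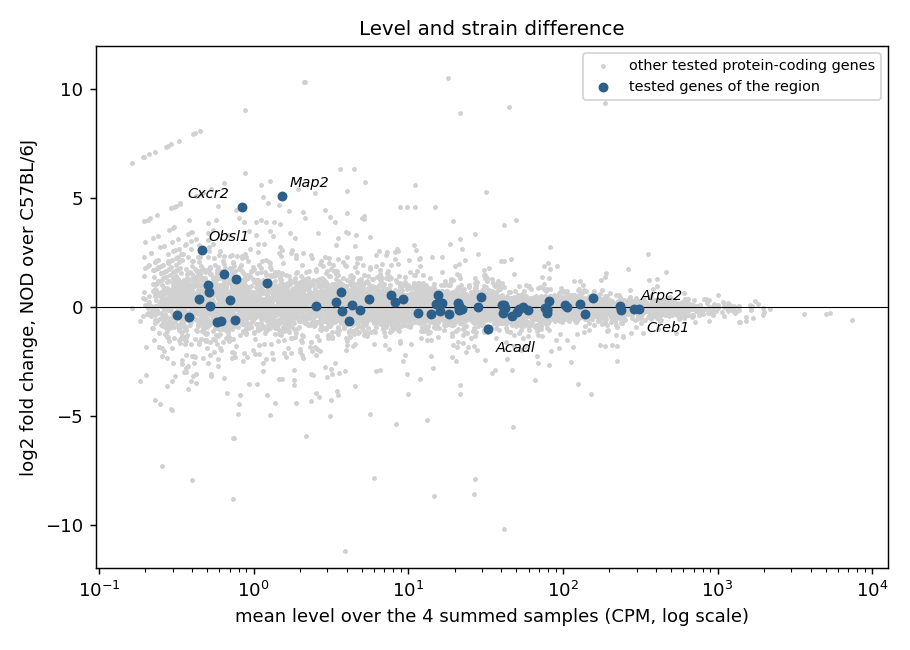
Mean level over the 4 summed samples (CPM, log scale, x axis) against log2 fold change (NOD over C57BL/6J, y axis) for the 65 tested genes of the interval (blue) and the other tested protein-coding genes (grey). The genes at 10 CPM or more stay between -0.99 (Acadl) and 0.56, and Map2 and Cxcr2 stand above 4 at low levels.

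Several genes of the interval overlap each other. Their exons share bases in 8 pairs, all on opposite strands, that involve 14 genes, and the strand setting of the counting is not given in the sources used here, so reads of such pairs cannot be told apart with certainty. In 7 pairs both genes were tested, and in 3 of these the estimates had opposite signs (Wdr12 and Carf, Ankzf1 and Glb1l, Stk16 and Tuba4a). Rpe and Kansl1l, Ndufs1 and Eef1b2, Usp37 and Cnot9, and Atg9a and Ankzf1 were the pairs with equal signs. Map2, Cxcr2 and Acadl were in none of the 8 pairs. Counting other kinds of genes too, 23 of the 72 genes shared exon bases with a gene that held reads.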

How the data were processed

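The authors deposited raw read counts per Ensembl gene, 1 table per library. STAR 2.5.0a (alignment), HTSeq 0.6.1 (counting) and the build GRCm38 are named in the submitters' processing notes. The strand setting, annotation release and read filters are not given in the sources used here. Symbols, types and coordinates were taken from GENCODE M21. Libraries sharing strain and B number were summed to 2 samples per strain, since the libraries of a sample may not be independent. Reads outside annotated genes, 46.6% to 59.1% of those listed per NOD library and 40.0% to 53.9% per C57BL/6J library, were not used.

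All 17291 genes kept by filterByExpr were fitted with edgeR 4.0.16 in R 4.3.3 (TMM scaling, robust quasi-likelihood F-test, strain as the only term, two-sided, Benjamini-Hochberg adjustment over all tested genes), and genes with an adjusted p under 0.05 were called. The SE is the size of the log2 fold change over the square root of F, and 95% intervals use the fit's degrees of freedom. Ratios of summed counts carry exact binomial intervals, which cover counting error only, since no molecular identifiers were counted.

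Named genes are those called, the 12 uncalled with the smallest p, the 6 with the highest level per exon length, and 20 fixed for their known roles, of which 19 are members. Members and lists were chosen with earlier results of these data known. Alternatives were DESeq2 1.42.0 size factors and Wald test, no filter, each sample left out, the B number as a block, 8 libraries with limma 3.58.1 voom, T1 or T2 libraries alone and thinning to equal depth. Added after seeing the data were each library left out and a crossed block. Same-numbered samples did not deviate together (correlation -0.123 across genes), and the labels do not tie the numbers.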

Additional observations from a re-analysis of the deposited data

Results flagged for a closer look

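Among the named genes, each strain's 4 libraries were checked for a library far from the other 3 by Dixon's criterion, 64 groups in all, of which 5 were marked. Chance marks about 1 in 20 groups. Map2 stood at 0.2518 CPM in library T1 of C57BL/6J sample 2, with 0 in the other C57BL/6J libraries. Cxcr2 stood at 0.1889 CPM in the same library, again with 0 in the others. With 3 libraries at 0, any reads in the remaining library meet the criterion, so these 2 marks carry no information on how far that library lies. Acadl was highest in library T1 of C57BL/6J sample 1, at 57.24 CPM, with 37.8 to 39.7 CPM in the others. Creb1 was lowest in library T2 of NOD sample 2, at 255.6 CPM, with 309.8 to 320.9 CPM in the others. Ndufs1 was highest in library T1 of NOD sample 2, at 84.66 CPM, with 70.9 to 71.6 CPM in the others.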

How the results depend on the processing

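Map2 remained called under all 21 alternatives and Cxcr2 under 17. Genes of the interval called higher numbered 3 with no filter (Obsl1 added, adjusted p = 0.0319), 1 on the T1 libraries alone, and 1 to 3 when a sample or library was left out; 1 without C57BL/6J sample 1, without library T2 of that sample or without library T1 of NOD sample 2 (Cxcr2 lost), and 3 without library T1 of C57BL/6J sample 1 (Obsl1 added, adjusted p = 0.0484). Genes called lower numbered 1 with no filter, with the DESeq2 Wald test and with voom on 8 libraries, Acadl each time, and 0 to 3 when a sample or library was left out, 3 of them (Acadl, Atic and Bard1) without NOD sample 2. Over all genes 637 were called, against 1188 with no filter and 342 on the T2 libraries alone, and 256 (without C57BL/6J sample 1) to 1389 (without NOD sample 2) when a sample or library was left out; it was 359 without C57BL/6J sample 2, 308 without library T2 of C57BL/6J sample 1 and 377 without library T1 of NOD sample 2. With the B number as a block it was 513 over all genes, 2 higher and 0 lower in the interval, and with the crossed pairing 768, 2 and 1. Thinning all samples to equal depth gave 597 over all genes. A fit with 1 sample left out takes its spread between samples from the other strain alone, which limits the calls and counts of such fits.

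Of 664 values of the 32 named genes, 33 changed sign, in 13 genes, none of them with an adjusted p under 0.05, and the causes were not tested. On the T2 libraries alone log2 fold changes were 0.0941 for Eef1b2, -0.0405 for Pikfyve, 0.0352 for Tmbim1 and -0.1214 for Abi2. On the T1 libraries alone they were 0.0145 for Ndufs1 and -0.0794 for Smarcal1. Smarcal1 was -0.0077 with voom and -0.0046 after thinning, and Usp37 0.0023 after thinning. Leaving out a sample or library gave -0.1912 to 0.0049 for Arpc2, -0.3308 to 0.0751 for Eef1b2, -0.2811 to 0.1423 for Creb1, -0.2516 to 0.0638 for Idh1, -0.1139 to 0.0231 for Ndufs1, -1.0468 to 0.2506 for Bard1, -0.0696 to 0.0700 for Smarcal1, -0.0988 to 0.0637 for Usp37, -0.1244 to 0.3630 for Pikfyve, -1.2712 to 0.3780 for Tmbim1, -2.2673 to 0.0102 for Abcb6, -0.1300 to 0.2951 for Abi2 and -0.1711 to 0.5037 for Raph1.

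With 2 samples per strain and C57BL/6J libraries shallower than NOD libraries, genes under 10 CPM carry wide intervals, and an uncalled gene there is not shown to be equal between strains.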
